A study of Arabidopsis thaliana with 36 samples.

Results

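Pseudouridine (Ψ) levels of rRNA and tRNA were compared between seed and seedling of Arabidopsis thaliana, at every listed site with a value in both tissues. This held for 530 of the 535 sites, namely all 186 rRNA sites and 344 of 349 tRNA sites. The series profiled total RNA of 9 tissues of wild-type Col-0 plants by BID-seq, in which bisulfite forms an adduct with Ψ that the reverse transcriptase skips, so that the base is read as a deletion. Seeds were mature and dry, and seedlings were whole young plants raised on Murashige and Skoog plates, with no mutation or treatment in either. Each tissue had 2 bisulfite-treated and 2 untreated input libraries, which makes 8 libraries for the comparison. The values are Ψ fractions, the share of RNA molecules with Ψ at a site, and the authors pooled both replicates into 1 fraction per site and tissue. The spread between replicates and the read depth are therefore unknown, so no difference below could be tested or set against experimental error. A difference of at least 0.1 in the fraction served as a descriptive step, and the remaining 7 tissues served as a yardstick. The tables hold no mRNA, so neither tissue label could be checked against marker genes.

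Ψ is an isomer of uridine that adds a hydrogen-bond donor and stiffens the RNA backbone. In nuclear-encoded rRNA, box H/ACA small nucleolar RNAs guide the enzyme dyskerin (CBF5 in yeast) to each site by base pairing. In tRNA and in organelles, stand-alone Ψ synthases recognise the sequence or the fold of their targets, and the Ψ in the T loop of tRNA, which helps to hold the L-shaped fold together, occurs in nearly all organisms.

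Helix 69 of the large-subunit rRNA is a hairpin that reaches the subunit interface and touches the tRNAs, and its loop carries Ψ in bacteria, organelles and the cytosol. It is shown because the same letters carry listed sites in all 3 genomes. Capitals mark every listed Ψ site. Coordinates refer to TAIR10.1, and the mitochondrial ones are approximate, since that assembly's mitochondrial genome differs from the one of TAIR10.
Nuclear 25S, chr2:8381-8403, plus strand: gtgggagTaacTaTgacTcTctt
Chloroplast 23S, chloroplast:106609-106631, plus strand: gcggccgTaacTaTaacggtcct
Mitochondrial 26S, mitochondrion:141729-141751, minus strand: gcggcagTaacTcTaacTgtcct

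At all 9 sites of the helix 69 letters (GTAACTNT, found once in each of the 3 large-subunit rRNAs, with 3 listed sites each), seed had the lower value. In the nuclear 25S rRNA the differences were small and all 3 sites passed the authors' filter in both tissues. The fraction at 25S:2255 was 0.729 in seed and 0.811 in seedling, that at 25S:2259 was 0.573 and 0.660, and that at 25S:2261 was 0.358 and 0.396. The searched letters do not reach the later capitals of the stretches shown. Among these, 25S:2265 was higher in seed (0.671 against 0.626) and 25S:2267 lower (0.188 against 0.304), each passed in both tissues. In the chloroplast 23S rRNA, 23S:1930 had 0.353 in seed against 0.758 in seedling, and 23S:1932 had 0.262 against 0.710, both passed in seedling alone. At 23S:1932 the seed value lay below those of the other 7 tissues (0.401 to 0.733), whereas at 23S:1930 root was lower still (0.339). The first chloroplast site, 23S:1926, passed in both tissues with 0.279 and 0.401. In the mitochondrial 26S rRNA, 26S:2222 had 0.239 in seed and 0.737 in seedling, with 0.368 to 0.832 in the other 7 tissues. Between seed and seedling, it passed in seedling alone. The 2 further mitochondrial letters, 26S:2226 and 26S:2228, were listed at exactly 0 in seed and at 0.402 and 0.678 in seedling. A 0 in these tables can be a failed estimate, and neither of the 2 zeros passed the filter. In seedling, 26S:2228 passed but 26S:2226 did not.

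**Figure D1:**
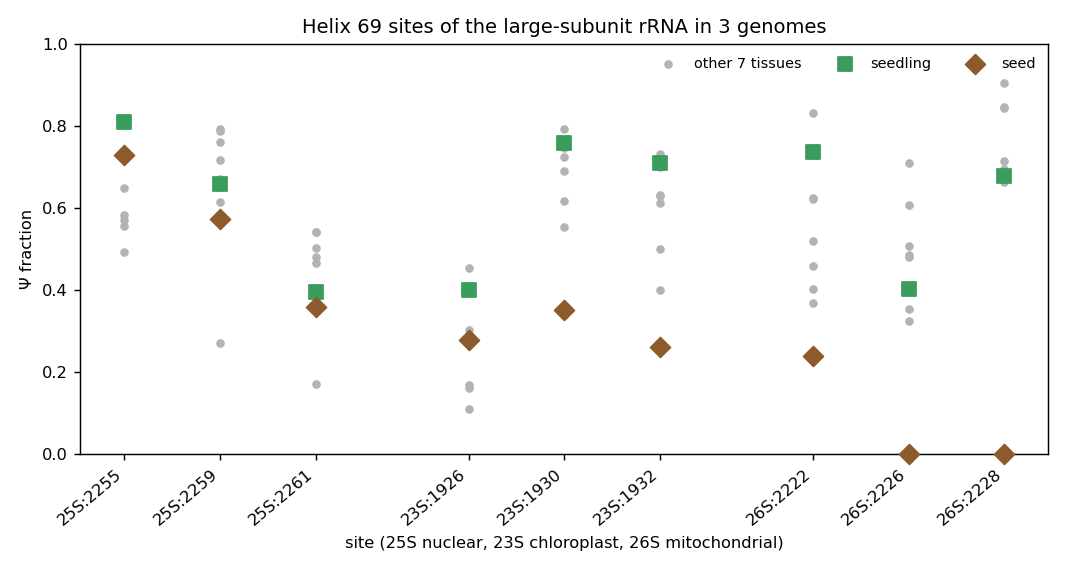
Ψ fraction (vertical axis, 0 to 1) at the 9 helix 69 sites of the nuclear 25S, chloroplast 23S and mitochondrial 26S rRNA, with 1 pooled value per tissue: brown diamonds for seed, green squares for seedling and grey points for the other 7 tissues. The plotted sites are those of the letters GTAACTNT. At each of them the seed value is below the seedling value. The seed value did not pass the filter at 23S:1930, 23S:1932 and the mitochondrial sites. The differences (seed minus seedling) are -0.087 to -0.038 in the nuclear rRNA and -0.448 to -0.122 in the chloroplast rRNA. Later capitals of the stretches shown, such as 25S:2265 (higher in seed), are not plotted.

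Of the 8 remaining mitochondrial rRNA sites, 2 were lower in seed by at least 0.1 and none was higher. At 26S:2232 the fraction was 0.765 in seed and 0.870 in seedling, and at 26S:2802 it was 0.336 and 0.445. The former passed in seedling alone and the latter in both tissues. The site 26S:2232 lies 4 bases after the last site of the searched letters, still within the helix 69 stretch shown above. The sites 26S:2181 (1.000 in seed, 0.996 in seedling), 26S:2878 (1.000 and 0.979) and 26S:2903 (0.983 and 0.963) were near saturation in both tissues. The other 3, namely 26S:1609, 26S:2989 and 1 that could not be placed, had fractions of at most 0.116 in both, where a step down of 0.1 could hardly show.

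Over all sites above 0 in both tissues, more rRNA sites passed the step upward in seed and more tRNA sites downward. In rRNA, 31 of 172 sites (18%) were at least 0.1 higher in seed and 15 (8.72%) at least 0.1 lower. By sign alone, 77 were higher, 85 lower and 10 equal, and among rRNA sites passed in both tissues 2 were higher by the step and 9 lower. In tRNA, 21 of 287 sites (7.32%) were higher by that step and 69 (24.0%) lower. Together, 52 of 459 sites (11.3%) were higher and 84 (18.3%) lower, or 29.6% past the step. These shares are the background against which the counts for single RNA classes below are read. The fractions of seed and seedling were related across sites, with a Pearson r of 0.908 in rRNA (n = 172) and 0.893 in tRNA (n = 287). Nearest the step in rRNA, the smallest counted differences were 0.108 and -0.105 and the largest uncounted ones 0.097 and -0.099. In tRNA these were 0.113 and -0.1, and 0.073 and -0.098.

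**Figure D2:**
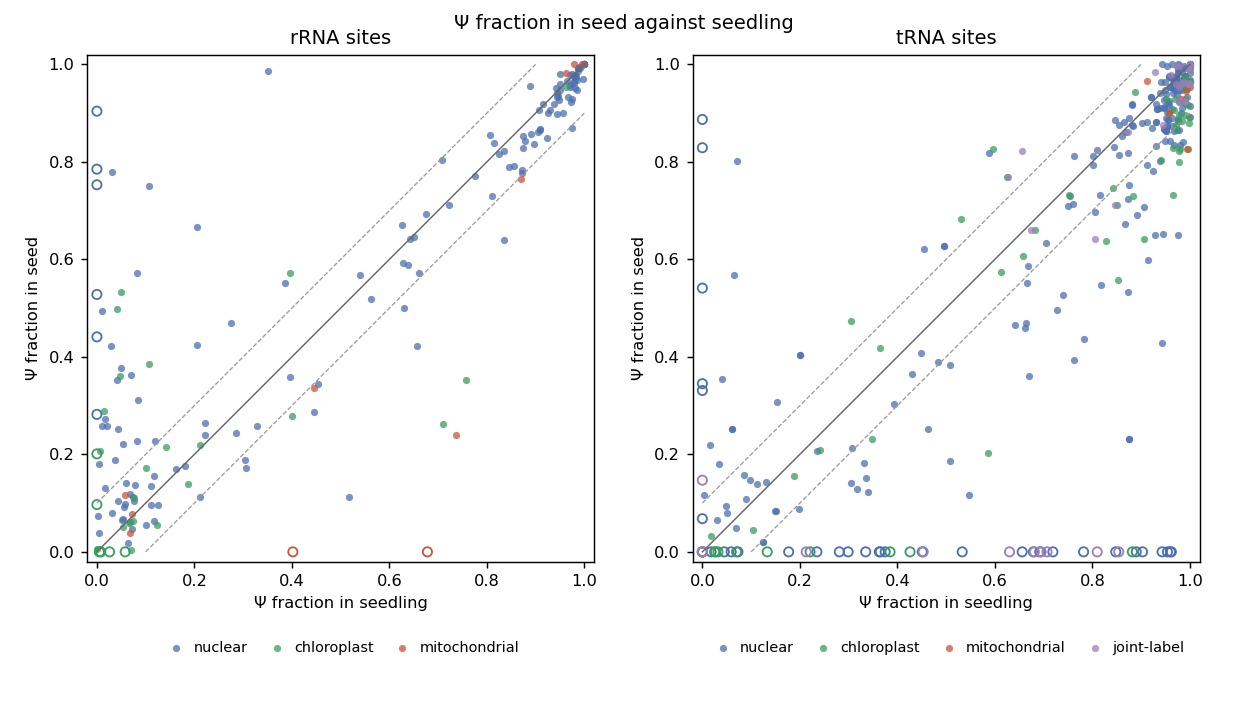
Ψ fraction in seed (vertical axis) against that in seedling (horizontal axis) at rRNA sites (left) and tRNA sites (right), coloured by genome, with joint-label for tRNA names ending in nuclei-Mt; open circles are sites listed at exactly 0 in either tissue, the solid line marks equality and dashed lines mark a difference of 0.1. In rRNA the points off the diagonal gather at the upper left (31 sites higher in seed, 15 lower), and in tRNA below it (21 higher, 69 lower).

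The size of the difference was ranked among the 36 pairs of the 9 tissues, which share values and so are only a scale. Seed and seedling differed by a median of 0.042 in rRNA and by at least 0.1 at 26.7% of sites, which placed the pair at rank 11 from the top. In tRNA the median was 0.052 and the share 31.4%, at rank 10. Both ranks are by the share of sites past the step. Seedling and shoot differed by a median of 0.014 in rRNA and 0.015 in tRNA, with 6.21% and 13.4% of sites past the step.

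Nuclear rRNA had 24 of 141 sites (17.0%) higher in seed and 9 (6.38%) lower, with a median difference (seed minus seedling) of -0.001 and quartiles of -0.036 and 0.041. The sites higher in seed had a median below 0.5 in the other tissues, although single tissues were high at some of them. Grouped by the median of the other 7 tissues, 14 of 34 sites below 0.1 and 10 of 31 sites from 0.1 to 0.5 were higher in seed. None of the 32 sites from 0.5 to 0.9 was higher, nor any of the 44 sites at 0.9 and over, where there is hardly room for such a step. Seed was the tissue farther from that median at 23 of the 24 sites and lay above all 7 other tissues at 21. Over all 141 sites, these counts were 79 and 38, and since the 24 sites were picked for a high seed value, nothing is read from the contrast. Of the 24 sites, 20 passed the filter in seed alone, 2 in both tissues (18S:35 and 18S:258) and 2 in neither.

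By RNA, the 18S rRNA of the small subunit had 14 of 61 sites higher in seed and 4 lower, and the 25S rRNA of the large subunit 8 of 74 higher and 5 lower. Within the 18S, divided at the middle of its length, 11 of 32 sites in the 5′ portion were higher against 3 of 29 in the 3′ portion. Nu-5.8S (nuclear-encoded), the small RNA that pairs with the 25S rRNA, had 1 of 5 sites higher. Whether the portions differ was not tested.

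**Figure D3:**
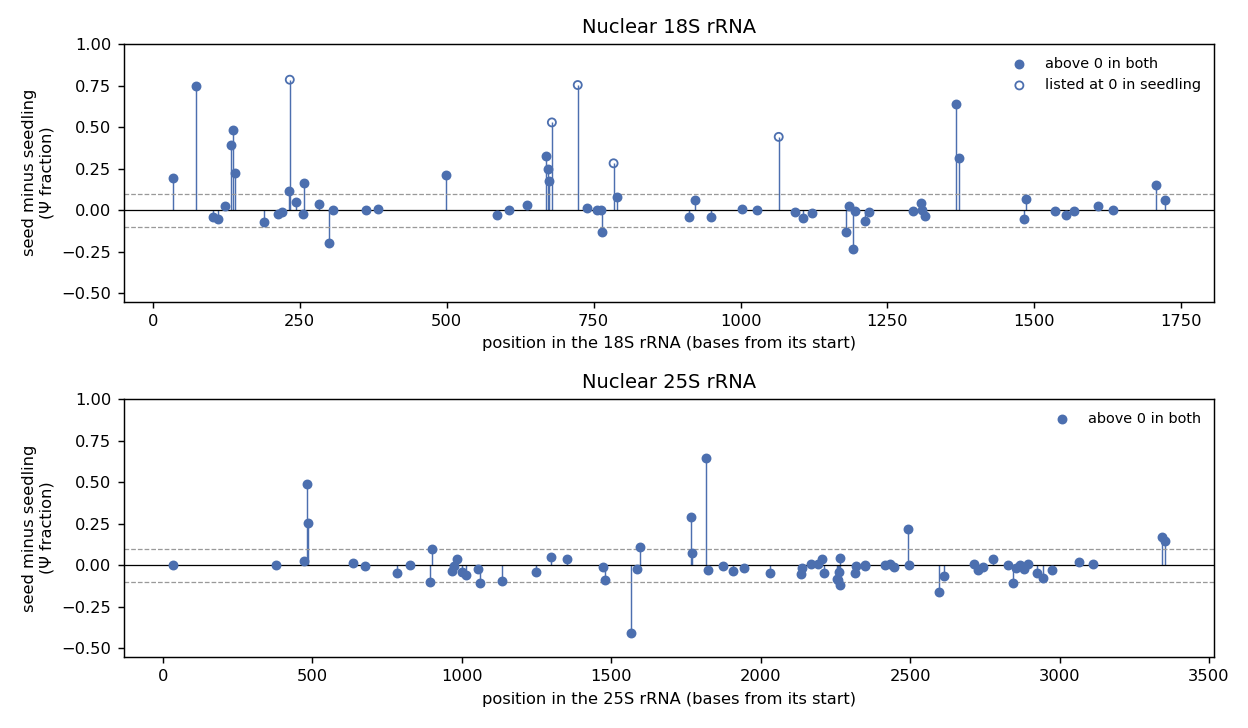
Difference in Ψ fraction, seed minus seedling (vertical axis), along the nuclear 18S rRNA (top) and 25S rRNA (bottom) by position from the start of each RNA (horizontal axis, bases); filled points are above 0 in both tissues, open points are listed at 0 in seedling, and dashed lines mark 0.1 and -0.1. Above the upper line stand 14 filled points of the 18S rRNA, 11 of them in the 5′ portion, and 8 of the 25S rRNA, beside 5 open points of the 18S rRNA, 4 of them in the 5′ portion.

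Several of these sites lay next to each other. Counting also the 6 sites listed at 0 in seedling, 30 nuclear rRNA sites were at least 0.1 higher in seed, and 13 of them fell in 5 stretches with neighbours no more than 6 bases apart. Of all 147 nuclear rRNA sites, 49 had another listed site that close. That count takes any listed neighbour, whereas the 13 have neighbours that were themselves higher in seed, so the shares are not alike. The stretches are shown because all of their sites higher in seed were passed in seed and none in seedling, with capitals for every listed site, on chromosome 2 of TAIR10.1, plus strand. A copy of the rRNA genes on chromosome 3 could not be told apart.
18S:133, 18S:136 and 18S:139, chr2:3830-3852: atggtaacTacTacTcggataac
18S:231 and 18S:233, chr2:3928-3946: acgcgggcTcTgcccgttg
18S:669, 18S:672, 18S:674 and 18S:679, chr2:4366-4392: tccgccttTggTgTgcatTggtcggct
18S:1367 and 18S:1372, chr2:5064-5085: tggaggcaTccctTcacggccg
25S:482 and 25S:487, the last 2 capitals, chr2:6607-6628: TccgccgaTcgatTcggggcgt

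All 13 sites passed the filter in seed and none passed in seedling. In the first stretch, the seed fractions were 0.423, 0.494 and 0.311, against 0.028, 0.010 and 0.085 in seedling. In the other 7 tissues the highest value was 0.098 at 18S:133, 0.184 at 18S:136 (silique) and 0.131 at 18S:139. In the second stretch, 18S:233 had 0.785 in seed, was listed at 0 in seedling and reached 0.153 in silique. Its neighbour 18S:231 had 0.130 in seed and 0.016 in seedling. In the third stretch, 18S:672, 18S:674 and 18S:679 had 0.258, 0.181 and 0.528 in seed and at most 0.056 in any other tissue. The fourth site there, 18S:669, differed from these, since root (0.288), flower (0.270) and silique (0.334) came near the seed value of 0.377, whereas seedling had 0.050. The 25S pair resembled the first stretch, with 0.572 in seed against 0.083 at 25S:482 and 0.272 against 0.017 at 25S:487. No other tissue exceeded 0.135 at the former or 0.027 at the latter.

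**Figure D4:**
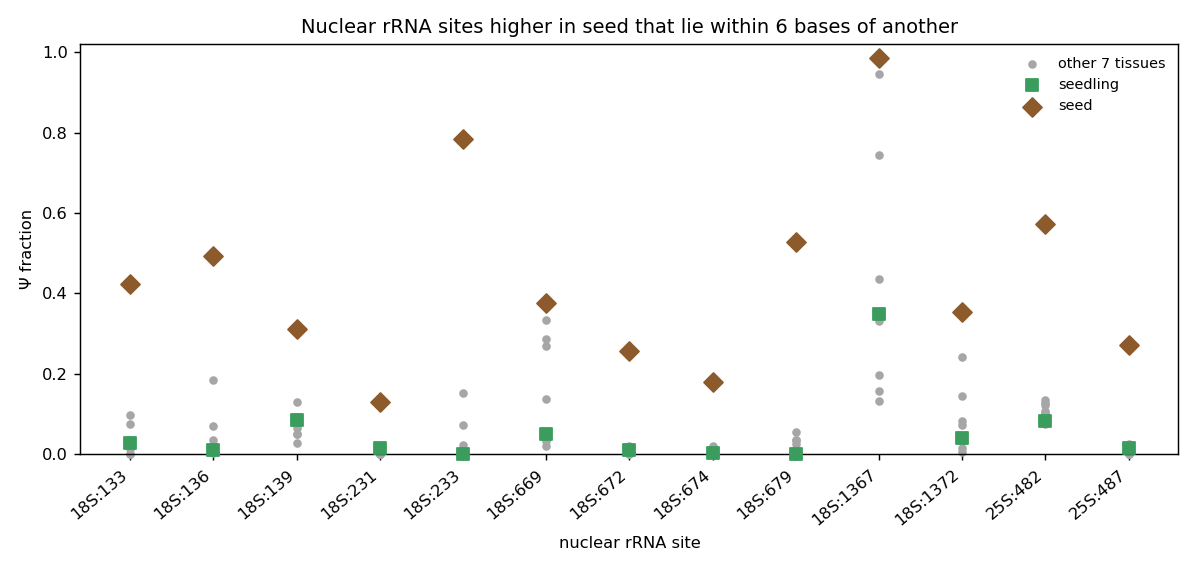
Ψ fraction (vertical axis, 0 to 1) at the 13 nuclear rRNA sites of the 5 stretches, with 1 pooled value per tissue: brown diamonds for seed, green squares for seedling and grey points for the other 7 tissues. Seed is the highest of the 9 tissues at all 13 sites, and other tissues come near it at 18S:669 and 18S:1367.

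At 5 sites, of which 18S:74 and 18S:723 were chosen after their values were seen, seed was high together with silique. Flower was above 0.5 at each of them too. The fraction at 18S:1367 was 0.986 in seed, 0.946 in silique, 0.743 in flower, 0.437 in root, 0.350 in seedling and 0.332 in shoot, and it was 0.132 to 0.197 in the leaves and stem. At 25S:1819, seed (0.751), silique (0.756), flower (0.651) and root (0.590) lay above stem (0.464), shoot (0.303), the leaves (0.202 and 0.120) and seedling (0.106). A site 7 bases upstream of the annotated 18S start, at base 3699 of chromosome 2, had 0.667 in seed and 0.745 in silique against 0.205 in seedling. Flower (0.552), cauline leaf (0.539), stem (0.436) and rosetta leaf (0.435) lay between seed and seedling there. At 18S:74 and 18S:723 the seed values were 0.779 and 0.753 and the seedling values 0.030 and 0, but neither tissue passed the filter there. In silique, 18S:74 had 0.960 and 18S:723 had 0.853. Flower (0.884 and 0.765) was above seed at both as well, and root had 0.707 and 0.630.

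The 6 nuclear rRNA sites listed at 0 in seedling had 0.282 to 0.904 in seed, and 5 of them passed there. The highest was Nu-5.8S:85 (0.904), which was listed at 0 in 7 tissues and at 0.040 in silique. The sites 18S:1065 (0.441) and 18S:784 (0.282) likewise stayed at or below 0.065 in the other 7 tissues. No nuclear rRNA site was listed at 0 in seed. In chloroplast rRNA, 4 sites were listed at 0 in seed, with 0.005 to 0.058 in seedling, and 2 in seedling. The filter passed none of the zeros of seed or seedling.

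Of the 9 nuclear rRNA sites lower in seed, 25S:1565 differed most. Its fraction was 0.112 in seed, not passed, and 0.517 in seedling, with 0.839 in rosetta leaf (spelled as in the labels), 0.775 in cauline leaf and 0.349 to 0.484 in the remaining 5 tissues, so seed was the lowest of all. At 7 of the 9 sites, seedling was the value farther from the other tissues' median, against 51 of all 141 sites. The 9 sites were picked for a seed value below that of seedling, so nothing is read from this contrast. At 18S:1191 the fraction was 0.423 in seed and 0.657 in seedling, against 0.296 to 0.551 in the other 7 tissues. The nearby 18S:1195, which the paper places in the decoding region of helix 31, had 0.816 and 0.824. At 18S:300 the fraction was 0.639 in seed and 0.835 in seedling, against 0.628 to 0.799. At 25S:2597 (0.287 and 0.446), 18S:764 (0.172 and 0.306) and 18S:1179 (0.5 and 0.630), both values lay within or close to the range of the other tissues. The T before 18S:764 is itself a listed site, 18S:763, with 1.0 in seed and in seedling. A deletion within such adjacent T letters cannot be assigned to either.

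In chloroplast rRNA the fractions of seed and seedling had a Pearson r of 0.588 over 22 sites above 0 in both, against 0.920 over 141 sites in nuclear rRNA. The 2 classes span unlike levels, so these r values are not alike. At 44 of the 141 nuclear sites but 1 chloroplast site, the median of the other 7 tissues was 0.9 and over. Of the 22 chloroplast sites, 7 (31.8%) were higher in seed and 3 (13.6%) lower, and the 3 lower ones were the helix 69 sites. Of the 7 higher sites 3 passed the filter in seed alone and 4 in neither tissue, and of the 3 lower sites 1 passed in both and 2 in seedling alone. The 4.5S rRNA, which corresponds to the 3′ end of the bacterial 23S rRNA, had 3 of 4 sites higher, and its stretch is shown for that reason, at TAIR10.1 on the plus strand.
4.5S:28, 4.5S:31 and 4.5S:32, chloroplast:107618-107638: gccgtttaTcaTTacgatagg

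As 4.5S:28 passed in neither tissue, it is named after its value was seen. The fraction at 4.5S:31 was 0.533 in seed and 0.050 in seedling, with 0 to 0.191 in the other 7 tissues. At the adjacent 4.5S:32 it was 0.288 and 0.015. A deletion within 2 adjacent T letters cannot be assigned to either of them, so these are not independent sites. At 4.5S:28 seed had 0.361 and seedling 0.047, not passed in either, and root (0.275), flower (0.313) and silique (0.333) came close to seed. In the 23S rRNA, 23S:294 had 0.206 in seed against 0.007, with at most 0.042 elsewhere. The saturated site 23S:2623 had 0.954 in seed and 0.963 in seedling. Only 4 of the 28 listed chloroplast sites passed the filter in both tissues, against 101 of 147 nuclear rRNA sites.

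In tRNA the seed value was below the seedling value at 211 of 287 sites, above it at 69 and equal at 7. Nuclear tRNAs had 15 of 200 sites (7.50%) higher by the step and 48 (24.0%) lower, with a median difference of -0.029. Chloroplast tRNAs had 4 of 54 sites (7.41%) higher and 18 (33.3%) lower, with a median of -0.061, and 47 of the 54 seed values were below seedling to some extent. The 27 sites of tRNAs whose names end in nuclei-Mt, a label whose meaning was not given, had 2 higher and 2 lower. Of the 6 mitochondrial tRNA sites with a value in both, 5 were lower in seed. The largest difference was at position 27 of Lys-TTT-2 (0.827 against 0.995, passed in seedling alone). At 57 of the 69 lower sites seed, rather than seedling, was the value farther from the other tissues' median, and at 28 it lay below all 7 of them. Over the 286 tRNA sites above 0 in both tissues and with a value in the other tissues, these counts were 184 and 36, and the 69 sites were picked for a low seed value.

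In the T loop (positions 54 to 60 along the tRNA, without the Leu, Ser and Tyr tRNAs, many of which have a long variable arm that shifts the numbering), 2 of 91 sites were higher in seed by the step and 19 lower, with median fractions of 0.918 in seed and 0.969 in seedling. The conserved Ψ is the second T of the letters GTTC, a match found at 107 of the 349 listed tRNA sites (30.7%), 1 for each of 107 tRNA names. In chloroplast tRNAs all 26 such sites were lower in seed, with differences of -0.178 to -0.003 and a median of -0.0775, and 9 of them were lower by the step. In nuclear tRNAs 45 of 63 were lower and 17 higher, with a median of -0.020, and 10 were lower by the step. The 3 mitochondrial ones had differences of -0.052 to -0.046. The chloroplast sites are illustrated by the tRNA with the largest difference and 1 with nearly none, with the listed site in capitals.
Met-CAT-7 of the chloroplast, position 56, 0.800 in seed and 0.978 in seedling: ggtcacgggtTcaaatcctgt
Leu-TAG-3 of the chloroplast, position 62, 0.997 in seed and 1.000 in seedling: gcatctcggtTcgagtccgag

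Across the 26 chloroplast GTTC sites, which include tRNAs outside the window of the T loop above, the median fraction was 0.908 in seed, with values from 0.800 to 0.997, and 0.9825 in seedling, with values from 0.941 to 1.000, so the ranges overlap. The medians of shoot, both leaves, stem, flower and silique lay between 0.9765 and 0.987. Root had 0.8505 and was below seed at 22 of the 26 sites, so seed was the second lowest tissue. In nuclear tRNAs the medians at these letters were 0.937 in seed, 0.961 in seedling and 0.804 in root.

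By position along the tRNA sequence, again without the Leu, Ser and Tyr tRNAs and over sites above 0 in both tissues, the anticodon arm (26 to 44) had differences in both directions. Of its 85 sites, 12 were higher in seed and 29 lower, and 21 of its 117 listed sites were at 0 in seed alone, against 43 of all 349. The D arm (10 to 25) had 1 of 25 higher and 3 lower. At position 13, modified by Pus7 in yeast, 2 of 20 sites were lower by the step and none higher, with a median of -0.078. Position 28 had 4 of 9 lower and none higher, and a further 5 listed at 0 in seed. Positions 38 and 39 had 3 of 10 and 4 of 10 lower and none higher, where 24.0% of all tRNA sites were lower and 7.32% higher. Positions were counted along each listed sequence and not aligned to the standard tRNA numbering. Other positions had sites on both sides, with 4 of 18 higher and 6 lower at position 27 and 3 of 10 higher and 4 lower at position 32. Position 33, next to the anticodon, had 4 of 7 higher and 1 lower, with a median of 0.131, and 2 of the 4 are proline tRNAs with identical values in all tissues. By amino acid, glutamine tRNAs had 8 of 20 sites lower and none higher (beside 2 listed at 0 in seedling and high in seed, in the D loop), arginine tRNAs 10 of 24 lower and 1 higher, and proline tRNAs 4 of 28 lower and 6 higher.

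**Figure D5:**
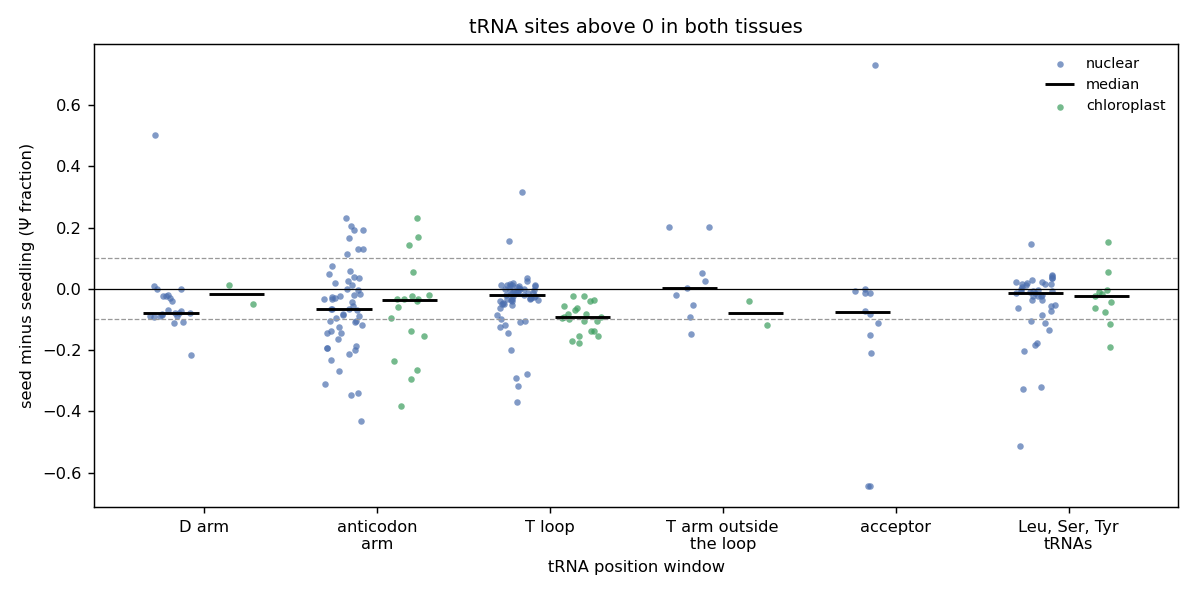
Difference in Ψ fraction, seed minus seedling (vertical axis), at tRNA sites above 0 in both tissues, by position window (horizontal axis) and genome (blue nuclear, green chloroplast); each point is a site, black bars are medians and dashed lines mark 0.1 and -0.1. All 21 chloroplast T-loop points lie below 0, with a median of -0.092, and the 59 nuclear ones have a median of -0.021.

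A small set of tRNA sites was high in seed and near 0 elsewhere. In 3 of them the site fell on a T of the D-loop letters GGTTAGGA. These letters are present in every matching gene for 7 of the 138 tRNA names with a matching gene (5.07%). They are shown because no other listed site lay on these letters among names whose matching genes all hold them at the same place. Names whose matching genes differ there, and names without a matching gene, were not searched. The letters were chosen after the values were seen.
Gln-CTG-1, position 20, and position 13 before it: gtcTagcggtTaggacactag
Gln-CTG-3, position 20, with positions 13 and 27: gtcTagcggtTaggacaTtgg
Gly-TCC-1, position 19: agtccaacggTtaggataatt

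Gln-CTG-1 (AT1G01270, chr1:111890-111961, minus strand) had 0.887 at position 20 in seed, was listed at 0 in seedling and 5 other tissues, and had 0.082 in root and 0.049 in flower. Gln-CTG-3 had 0.829 in seed, 0.064 in cauline leaf and 0 in the other tissues. Gly-TCC-1 had 0.567 in seed, 0.064 in seedling and 0.044 to 0.144 in the other 7 tissues. All 3 passed the filter in seed alone. The remaining sites of these tRNAs were lower in seed or alike, such as position 13 of Gln-CTG-1 (0.874 against 0.964) and position 54 of Gly-TCC-1 (0.948 in both).

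The largest difference among tRNA sites above 0 in both tissues was at position 71 of Val-TAC-2 (AT4G16235, chr4:9191576-9191648, plus strand), in the acceptor stem, with 0.801 in seed and 0.071 in seedling. Of the other 7 tissues, 5 were listed at 0 and root had 0.387. At position 13 the same tRNA was listed at 0 in seed and had 0.962 in seedling, which passed in neither, and its T-loop site had 0.937 and 0.974. Histidine tRNAs contributed 2 further sites, position 54 of His-GTG-2 (0.355 against 0.040) and position 33 of His-GTG-1 (0.818 against 0.587). At the latter, seedling was the lowest of the 9 tissues.

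Tryptophan tRNA moved in both directions. Position 70 of Trp-CCA-1 had 0.232 in seed and 0.876 in seedling, passed in both, while the other 7 tissues had 0.516 (root) to 0.894. Position 64 had 0.403 and 0.2, against 0.178 to 0.267 in the other 7. Seed was thus the lowest tissue at position 70 and the highest at position 64. Its T-loop site had 0.934 and 0.921. Trp-CCA-2 had the same pooled values at positions 64 and 70 in seed and seedling and is not a separate observation. In all, 16 tRNA sites in 8 sets shared every value.

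Among the other nuclear tRNA sites lower in seed, Ser-AGA-1-b had 0.428 against 0.942 at position 39, with 0.805 to 0.936 in the other 7 tissues. Its GTTC site had 0.989 and 0.975. Pro-CGG-1 had 0.116 against 0.547 at position 32, with 0.057 to 0.615 elsewhere. Ala-AGC-1 had 0.393 against 0.762 at position 55, and Cys-GCA-2 0.533 against 0.874 at position 38. In these last 2 seed was the lowest tissue. Cys-GCA-2 passed the filter there in seed alone. The sites named for Ser-AGA-1-b (position 39), Pro-CGG-1 and Ala-AGC-1 passed in seedling alone. In the chloroplast, Arg-TCT-4 (ArthCt093, chloroplast:9590-9661, plus strand) was lower at its 3 sites, position 27 (0.731 against 0.965), position 31 (0.203 against 0.585) and position 54 (0.826 against 0.979). In root the first 2 of these were listed at 0. At both of them seedling passed the filter and seed did not. Glu-TTC-5 at position 32 (0.558 against 0.852) and Met-CAT-8 at position 33 (0.641 against 0.906) were also lower. The former passed in both tissues and the latter in seedling alone. The chloroplast tRNA sites higher in seed were Thr-TGT-2 at position 27 (0.827 against 0.596), Gly-GCC-4 (0.474 against 0.304), Ser-GGA-1 (0.682 against 0.530) and Asn-GTT-4 (0.768 against 0.624). Thr-TGT-2 passed there in seedling alone, and the others passed in both tissues. The tRNA Asn-GTT-4 with the nuclei-Mt label had the same letters around position 27 and nearly the same values there (0.768 against 0.627), whereas at position 39 it had 0.876 in seed and the chloroplast tRNA 0.729.

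Values of exactly 0 were unequally spread in tRNA. In all, 43 sites were listed at 0 in seed alone, 7 in seedling alone and 7 in both. Of the 43, 26 were nuclear, 9 chloroplast and 8 in the nuclei-Mt group, and their seedling fractions ran from 0.018 to 0.962 with a median of 0.451. In seedling 20 of the 43 passed the filter and 20 had at least 0.5, and 27 were above 0 in all of the other 7 tissues. The highest of the passed ones were Phe-GAA-2 at position 51 (0.960), Val-CAC-1 at position 13 (0.954), Ser-AGA-3 at position 41 (0.943), Ser-CGA-1 at position 39 (0.903) and Met-CAT-1 at position 28 (0.890). At Ser-AGA-3 and Phe-GAA-2 the other 7 tissues had at least 0.844 and 0.738. Across the series seed had 50 tRNA values of 0, against 6 to 23 in the other tissues, and 7 values of 1, against 18 in seedling. Whether these zeros are absent Ψ or sites with too few reads cannot be told apart here.

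The filter was split between the tissues as follows. In rRNA, 39 sites passed in seed alone and 15 in seedling alone, and in tRNA 14 passed in seed alone and 81 in seedling alone. In chloroplast tRNA the split was 0 and 13, in nuclear rRNA 33 and 5, and in chloroplast rRNA 5 and 7. Among tRNA sites passed in both tissues, 8 were higher in seed and 43 lower. As given above, the rRNA counts were 2 and 9 there, so the excess of rRNA sites higher in seed rested on sites that seedling did not pass. Of the 31 rRNA sites higher in seed, 22 were below 0.1 in seedling. Whether such low values alone kept them from passing was not tested, so the split does not show how reliable these sites are.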

How the data were processed

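The authors sequenced BID-seq libraries of total RNA as single reads and processed them with their own pipeline against TAIR10. For each site they summed gapped and ungapped reads over both replicates of a tissue and converted the gap ratio with a calibration curve, and they deposited 1 Ψ fraction per site and tissue (0 to 1) with a pass flag whose thresholds, based on p-values, were not stated. Read counts and coverage were not used here, so depth and precision are unknown. No deposited column of values was left out (0 columns).

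From the deposited fractions, seed minus seedling was computed at each site. Sites listed at exactly 0 were kept apart. Sites were counted past a step of 0.1, and the median difference was taken per RNA class, rRNA, tRNA window, position, amino acid and level. No test was run, since each tissue has a single pooled value. Positions were placed on TAIR10.1 by requiring a T at each listed site. The best offset put all 147 nuclear sites on a T (next best 60), 24 of 28 chloroplast sites (next best 20) and 10 of 11 mitochondrial sites (next best 8). In all, 6 rRNA sites were not placed. The start of the 25S rRNA, not annotated, was set at base 6134. Of 144 tRNA names, 138 matched at least 1 of 684 annotated genes, and 31 matched a single gene. The rRNA and tRNA sequences were read from the RefSeq TAIR10.1 genome.

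Sites were named by rank of the difference per class among sites passed in at least 1 tissue (6 highest and 6 lowest in nuclear rRNA and in nuclear tRNA, 4 in chloroplast tRNA, 3 in chloroplast rRNA and in the nuclei-Mt group), with all mitochondrial and helix 69 sites, and up to 5 sites at 0 in 1 tissue and passed in the other. Sites in the stretches of neighbouring sites, other sites of a named tRNA and the GTTC and GGTTAGGA letters were chosen after values were seen. For helix 69 the letters were widened by 1 base to take in the mitochondrial sequence. Members and lists were chosen with earlier results of these data known. The alternatives were other steps, odds, centring, zeros kept in, passed sites only, means, 1 value per anticodon and position, and the nuclei-Mt group counted as nuclear. The summaries were tested on simulated data. Tables were handled in pandas 2.3.3 and numpy 2.4.6 under Python 3.11.15, sequences in Biopython 1.88 and plots in matplotlib 3.10.9.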

Additional observations from a re-analysis of the deposited data

How the results depend on the processing

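No paired analysis was possible because both replicates were pooled into 1 value per site and tissue, and for the same reason no replicate could be left out. The count of rRNA sites higher in seed (31) was 2 among sites passed in both tissues and between 21 and 42 under the other alternatives run. The count lower in seed (15) became 31 with a step of 0.05, 5 with a step of 0.2, 23 with a doubling or halving of the odds, and 9 among sites passed in both. The tRNA count higher in seed (21) became 8 with a step of 0.2, 32 on the odds, and 8 among sites passed in both. The tRNA count lower in seed (69) became 123 with a step of 0.05, 24 with 0.2, 136 on the odds, 104 with values of 0 kept in, and 43 among sites passed in both. It exceeded the count higher in seed in each of these settings.

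The median difference of nuclear rRNA (-0.001) became 0.0 with values of 0 kept in and -0.010 among sites passed in both, and its mean was of the opposite sign (0.0348). That of chloroplast rRNA (0.006) became 0.0005 with zeros, -0.0005 among sites passed in both and -0.003 among sites passed in at least 1 tissue, while its mean was 0.054. Neither median has a settled sign. That of nuclear tRNA (-0.029) ran from -0.0493 (mean) to -0.025 (sites passed in both, and the nuclei-Mt group counted as nuclear), with -0.035 with zeros and -0.032 with 1 value per anticodon and position. That of chloroplast tRNA (-0.061) was -0.065 among sites passed in both, -0.069 among those passed in at least 1 tissue and -0.0688 as a mean. The cause of these shifts was not tested beyond the sites that each setting leaves out. With no depth or replicate spread, differences near 0.1 cannot be told from measurement error.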
